A study of Mus musculus with 36 samples.

Results

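Neural stem cells (NSCs) of the fetal mouse cortex were grown as neurospheres and exposed to a moderate (120 mg/dL) or a heavy (320 mg/dL) ethanol concentration, and the data here are the RNA sequencing counts of the cells at the heavy dose set against the cells at the moderate dose. The 12 samples were chosen by their labels, 6 at each dose, out of 36 samples in the series. Each of 3 pregnancies, labelled as sets 3, 4 and 5, gave 1 culture of female and 1 of male fetuses, written here as 3F for the females of set 3 and so on, and all 6 cultures were measured at both doses. The comparison leaves out the 6 control cell samples, whose levels are given only as a reference, and it is therefore not tied to the control samples that the tests of each dose against control share.

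All groups were C57BL/6J NSCs from the dorsal telencephalon at gestational day 12.5, collected on day 5 of exposure. The labels give the genotype as WT, and the study's methods name the mice as C57BL/6J (Ai14), a Cre reporter line, so every group shares that background. Control cultures received no ethanol, and the ethanol groups differed from each other in concentration only. Fetuses of a pregnancy were pooled by sex, so a culture stands for a pooled sex of a litter, the female and male culture of a set share a dam, and passaged neurospheres lack the vessels and immune cells of the tissue. The extracellular vesicles (EVs) secreted by the same cultures gave a matching set of 12 samples at these doses.

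Ethanol reaches fetal neural stem cells freely, and exposure in the period of cortical neurogenesis is a cause of fetal alcohol spectrum disorders. Radial glia and the neurospheres derived from them self-renew under FGF and EGF, are held in the progenitor state by Notch signalling, and give rise to neurons first and to astrocytes and oligodendrocytes later. Cells that handle ethanol oxidise it to acetaldehyde and acetate, and stress pathways such as the unfolded protein response, the integrated stress response and the NRF2 antioxidant programme are known targets of ethanol.

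Between 120 and 320 mg/dL, 2 of 18410 tested genes, 0.0109%, were called different. The test was a quasi-likelihood F test in edgeR with the culture as a block and adjusted p under 0.05. Both were lower at 320 mg/dL, and both are long non-coding RNA loci, Gm34152 (adjusted p = 0.000285) and Gm30812 (adjusted p = 0.000494). The third smallest adjusted p was 0.978. No gene was called higher in edgeR, while DESeq2 called 4 genes higher and 3 lower.

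Gm34152 lies on the minus strand of chromosome 15 at 98588259 to 98594292 (GRCm39, GENCODE), 12.9 kb from Rnd1 and 11.8 kb from Ccdc65. Gm30812 lies on the plus strand of chromosome 5 at 113609630 to 113632070 (GRCm39), 6.06 kb before Wscd2. The bases around the annotated starts of these loci are shown because they are the only loci called. RefSeq gives them on the GRCm38.p6 build, at chr15:98696355-98696654 on the minus strand and chr5:113461999-113462298 on the plus strand, written here in the direction of transcription with the 250 bases before the start in lower case and the 50 bases from the start in capitals.
Gm34152: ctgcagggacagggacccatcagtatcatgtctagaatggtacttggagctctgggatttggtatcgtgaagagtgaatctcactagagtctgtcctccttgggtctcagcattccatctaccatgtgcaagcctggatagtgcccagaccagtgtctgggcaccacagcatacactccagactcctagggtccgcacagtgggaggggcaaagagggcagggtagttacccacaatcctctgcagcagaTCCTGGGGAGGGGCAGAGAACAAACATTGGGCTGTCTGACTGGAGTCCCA
Gm30812: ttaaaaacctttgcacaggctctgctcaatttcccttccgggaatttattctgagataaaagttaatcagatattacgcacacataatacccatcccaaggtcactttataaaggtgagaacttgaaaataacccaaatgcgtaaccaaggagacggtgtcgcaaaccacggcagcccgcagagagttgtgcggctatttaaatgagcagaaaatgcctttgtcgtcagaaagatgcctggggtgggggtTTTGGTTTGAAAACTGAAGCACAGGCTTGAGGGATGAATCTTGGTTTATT
The Gm34152 stretch holds 2 CG dinucleotides and the Gm30812 stretch holds 9, against a median of 7 over 32851 RefSeq promoters of the same length. The letters TATAAA, searched on both strands, are present in the Gm30812 stretch and not in that of Gm34152, and they occur in 13.6% of those promoters.

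Gm34152 was counted in an all-or-none manner. At 120 mg/dL its raw counts were 911 in culture 3F, 1316 in 4F, 357 in 5F and 281 in 5M, but 1 in 3M and 2 in 4M. At 320 mg/dL no culture had more than 1 count. In control cells the locus had 781 counts in 4F and 5 in 3F, and at most 1 in each other culture. The low level at 320 mg/dL was therefore shared with 5 of 6 control samples, and at 120 mg/dL 4 cultures had 281 counts or more.

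The summed rate of Gm34152 was 747-fold higher at 120 mg/dL than at 320 mg/dL, from 2868 counts against 3, with a 95% interval of 255 to 3626 that covers counting error only. The fitted log2 fold change was -9.17 (SE 0.49) and depends on the small count added to empty samples. The difference had the same sign in 6 of 6 cultures, with an exact sign-change permutation p of 0.03125, the smallest that 6 cultures can give, although in 3M and 4M it rests on 1 and 2 counts at 120 mg/dL.

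Gm30812 was high in other cultures than Gm34152. At 120 mg/dL it had 7068 counts in 5M, 2064 in 3M and 81 in 4M, and 0, 1 and 1 in 3F, 4F and 5F. At 320 mg/dL its counts lay between 0 and 2. In control cells, culture 4M had 5971 counts and the others had 0 or 1. All samples with over 3 counts were from male cultures.

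The 9215 counts of Gm30812 at 120 mg/dL against 4 at 320 mg/dL gave a ratio of 1801, with an interval for counting error of 703 to 6611, and a fitted log2 fold change of -10.26 (SE 0.54). The within-culture differences were negative in 4 of 6 cultures, and the exact permutation p over the 6 differences was 0.125. Without culture 5M the locus was no longer called (edgeR adjusted p = 0.152), nor was it without set 5 (0.184) or with DESeq2 (0.397). With the pregnancy in place of the culture as the block Gm30812 was called and Gm34152 was not (edgeR adjusted p of 0.0184 and 1.0). When all 18 cell samples entered the edgeR fit neither locus was called, with adjusted p of 0.383 for Gm34152 and 1.0 for Gm30812. In a fit without the culture block neither was called. The dose groups overlapped at both loci.

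**Figure D1:**
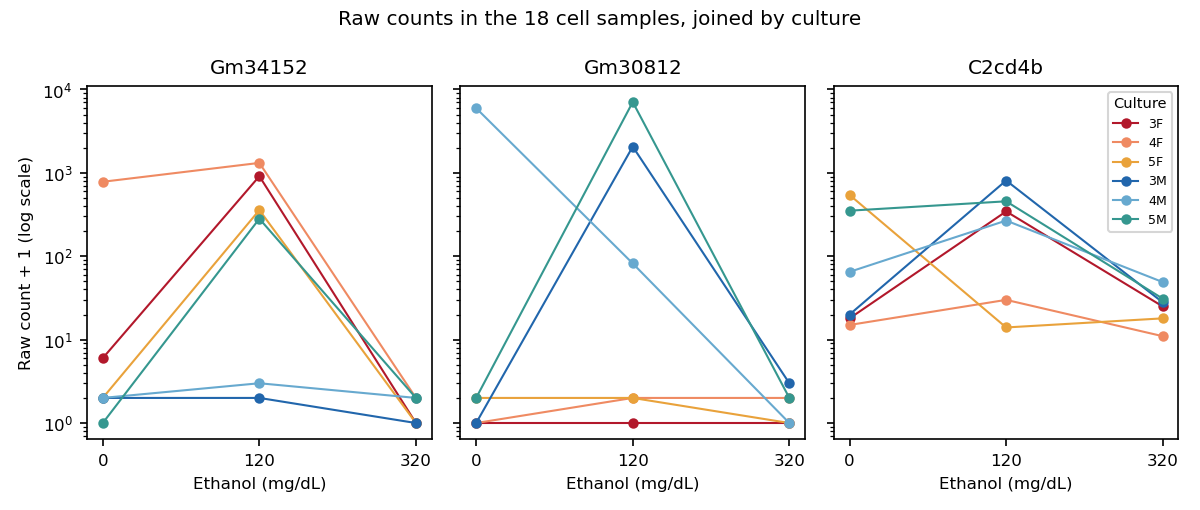
Raw counts plus 1, on a log axis, of Gm34152, Gm30812 and C2cd4b in the 18 cell samples at 0, 120 and 320 mg/dL ethanol, with a line for each culture. At 320 mg/dL the counts of Gm34152 do not exceed 1 and those of Gm30812 do not exceed 2, whereas at 120 mg/dL Gm34152 ranges from 1 to 1316 and Gm30812 from 0 to 7068 among cultures.

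The neighbouring genes did not carry counts of that size. Rnd1 lay between 0.220 and 1.56 CPM (counts per 1000000 counts of a sample, scaled by TMM) in the 12 samples and its dose step on the log2 scale was -0.52 (SE 0.16, adjusted p = 0.978). Ccdc65 lay between 0.190 and 0.956 CPM. Wscd2 lay between 0.0759 and 0.503 CPM, and its step was 0.11 (SE 0.48, adjusted p = 1.0).

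C2cd4b, a protein-coding gene named for its C2 domain, had the next smallest p among the genes lower in all 6 cultures, but did not pass the threshold (log2 fold change -2.69, SE 0.47, edgeR adjusted p = 0.978). Its levels at 120 mg/dL were 12.5 CPM in 3F, 12.9 in 3M, 9.63 in 5M and 7.22 in 4M, and 0.602 and 0.526 CPM in 4F and 5F. At 320 mg/dL they lay between 0.366 and 1.76 CPM. High levels were also present in control cells, with 12.05 CPM in 5F and 9.02 in 5M, and the dose groups overlapped. With no filter on low counts C2cd4b was called (adjusted p = 0.0329).

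For most genes other than these loci the step was small and closely measured. Exceptions that were not called include Gm34805, with a log2 fold change of -3.22 (SE 0.91), and E2f1, with 1.00 (SE 0.49). The median log2 fold change over all tested genes was 0.01, the median of its absolute value 0.08 and the median SE 0.11. The 95% interval lay wholly within a 2-fold change in either direction for 89.9% of tested genes, for 97.7% of the 13604 genes with a mean of at least 1 CPM and for 99.0% of the 8904 genes with at least 10 CPM. Within 1.5-fold the shares were 70.0%, 89.9% and 96.2%.

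**Figure D2:**
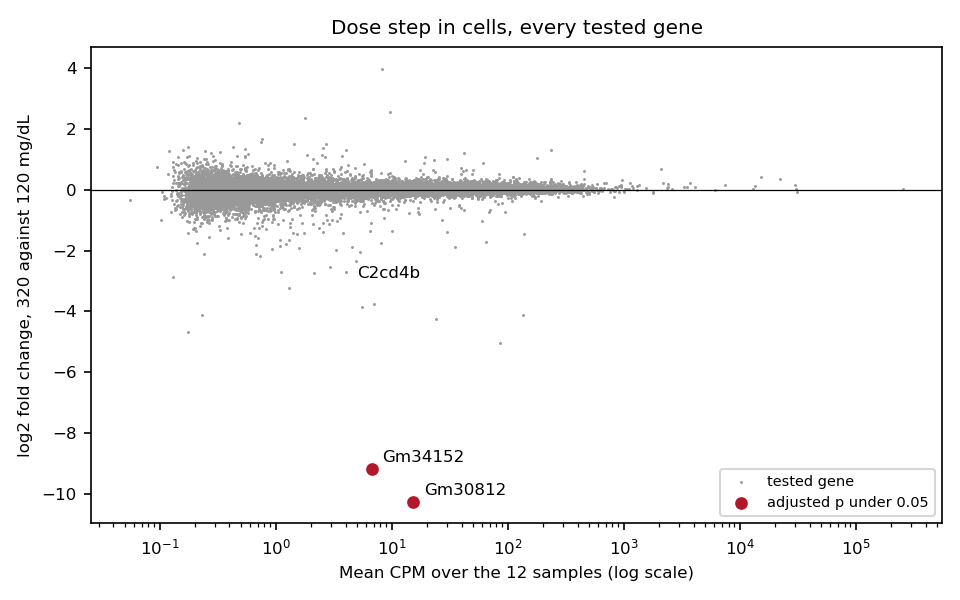
Log2 fold change at 320 against 120 mg/dL (vertical axis) against mean CPM over the 12 samples (log axis) for each of the 18410 tested genes, with the called genes in red. The called loci lie near -9.17 and -10.26, far below the band of the other genes, whose median absolute value is 0.08.

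At an unadjusted p under 0.05, 527 genes (2.86%) were higher and 365 genes (1.98%) lower at 320 mg/dL. The split between directions depended on scaling. Of the genes under this threshold, 59.1% were higher with TMM, 61.8% with median-of-ratios scaling and 23.2% with library totals alone, under which the median of all genes moved from 0.01 to -0.06. Counts of list members are read below against 2.86% and 1.98%, with this dependence in mind.

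The cultures differed from each other far more than the doses did. Over the 13604 genes with at least 1 CPM, culture accounted for a median of 89.7% of the variance of log2 CPM among the 12 samples, dose for 0.820% and the remainder for 8.31%, where even shares of the degrees of freedom would be 45.5%, 9.09% and 45.5%. In a principal component analysis of the 500 most variable genes, culture accounted for 99.8% of PC1 and 98.7% of PC2, which held 32.5% and 23.1% of the variance, and dose for under 1% of each. Dose accounted for 38.6% of PC5, a component with 6.00% of the variance.

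Most of the listed NSC markers were counted at both doses. The summed level of 9 NSC markers was 3444 to 4764 CPM at 120 mg/dL and 3649 to 4778 CPM at 320 mg/dL, and was higher at 320 mg/dL in 4 of 6 cultures. Among them Sox2 had 0 counts in every sample. Sox2 lies inside Sox2ot in the annotation, and Sox2ot was counted at 11.3 to 58.1 CPM with a log2 fold change of 0.00 (SE 0.08). Vim, a radial glial filament, had medians of 1583 and 1562 CPM at 120 and 320 mg/dL, and Slc1a3, the glial glutamate transporter, 1111 and 1217 CPM. Fabp7 had 978 and 968 CPM, and Vim, Slc1a3 and Fabp7 were the largest parts of the sum. Over both doses, 4 forebrain and dorsal markers summed to 24.2 to 42.5 CPM and 5 ventral markers to 0.448 to 9.01 CPM. The sum of 3 intermediate progenitor markers was 6.06 to 34.5 CPM, most of it from Insm1. Emx1 had medians of 0.214 and 0.272 CPM, Eomes 0.427 and 0.403 CPM and Neurog2 0.445 and 0.369 CPM.

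Markers of the progeny of NSCs were summed in the same way over both doses. The sums were 589.7 to 1135 CPM for 7 neuronal markers, 427 to 678 CPM for 5 oligodendrocyte markers and 39.2 to 303 CPM for 4 astrocyte markers. Map2 made up most of the neuronal sum, at 577 to 1105 CPM. Dcx had medians of 9.20 and 7.51 CPM at 120 and 320 mg/dL, Stmn2 had 0.329 and 0.341 CPM, and Neurod1 at most 11 counts. The astrocyte marker Aqp4 had 0 counts in every cell sample. Markers of cells from outside the neural lineage were low. The summed level of 7 microglial markers lay between 1.07 and 1.74 CPM over both doses, that of 4 endothelial markers between 1.09 and 2.37 CPM, and that of 5 mesenchymal markers between 0.779 and 3.82 CPM. P2ry12, a defining microglial receptor, had no count. Overlap with other genes, by which reads can be lost, was not examined for P2ry12 and Aqp4. The leading members by p were Itgam, with a log2 fold change of -0.24 (SE 0.21), Tek, with -0.30 (SE 0.21), Col1a1, with -0.37 (SE 0.31), and Foxj1 of ependyma, with -0.16 (SE 0.10).

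Among genes higher at 320 mg/dL in all 6 cultures, those with the smallest p were Htra1, Btbd17, Tm7sf2, Wnt4, Gabbr1 and Oaf. None passed the threshold in edgeR (adjusted p = 0.978 for each), and their fitted changes were between 1.22 and 1.48-fold. With DESeq2, Htra1, Wnt4 and Gabbr1 had adjusted p of 0.0330, 0.0402 and 0.0330. In bulk samples fewer cells of a type and less RNA per cell cannot be told apart, which bears on each of these differences.

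Htra1, a secreted serine protease, had levels of 20.0, 23.7 and 30.4 CPM (lowest, median and highest) at 120 mg/dL and 23.5, 32.3 and 42.5 CPM at 320 mg/dL. The ranges overlapped, and each culture was higher at the heavy dose, by 0.22 to 0.61 on the log2 scale. The control median was 20.6 CPM. The log2 fold change was 0.40 (SE 0.07, 95% interval 0.24 to 0.56).

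Wnt4, a Wnt ligand of the developing nervous system and kidney, showed the largest of these differences. Its levels were 3.33, 6.45 and 9.94 CPM at 120 mg/dL and 4.73, 9.02 and 15.5 CPM at 320 mg/dL, with a control median of 5.92 CPM. The log2 fold change was 0.56 (SE 0.11, 95% interval 0.32 to 0.81), and culture 3F contributed only 0.05 against 0.88 in 4M. The ranges overlapped.

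Gabbr1, a subunit of the metabotropic GABA-B receptor, was at 97.2, 126 and 185 CPM at 120 mg/dL and at 120, 158 and 274 CPM at 320 mg/dL, with a control median of 119 CPM. Its log2 fold change was 0.37 (SE 0.07). Tm7sf2, a sterol reductase of cholesterol synthesis, had medians of 12.4 CPM at 120 mg/dL and 15.1 CPM at 320 mg/dL, and the 6 within-culture differences were close to each other, from 0.20 to 0.36 on the log2 scale. Its log2 fold change was 0.28 (SE 0.05), Btbd17, a BTB domain protein, had 0.33 (SE 0.06) and Oaf had 0.31 (SE 0.06).

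Of the genes lower at 320 mg/dL in all 6 cultures, those that followed Gm34152 and C2cd4b by p were Phyhd1, Rlbp1, Gfap and Tnr, again without passing the threshold (adjusted p = 0.978). Gfap, the intermediate filament of astrocytes, had levels of 26.3, 94.2 and 261 CPM at 120 mg/dL and 25.0, 73.2 and 210 CPM at 320 mg/dL. In control cells the median was 69.8 CPM and the range 13.1 to 275 CPM. The spread among cultures was thus many times the step of -0.27 (SE 0.06, 95% interval -0.41 to -0.14).

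Tnr, the extracellular matrix protein tenascin-R made by oligodendrocyte lineage cells, had medians of 66.6 CPM at 120 mg/dL, 53.9 at 320 mg/dL and 53.8 in control cells. Its log2 fold change was -0.31 (SE 0.07). Rlbp1, the retinaldehyde-binding protein of glia, had medians of 4.39 and 2.97 CPM at 120 and 320 mg/dL and 5.32 CPM in control cells, with a log2 fold change of -0.47 (SE 0.10). Phyhd1, a dioxygenase domain protein, had 12.5 and 9.03 CPM and a log2 fold change of -0.40 (SE 0.07). The ranges of the dose groups overlapped for all 4 genes.

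**Figure D3:**
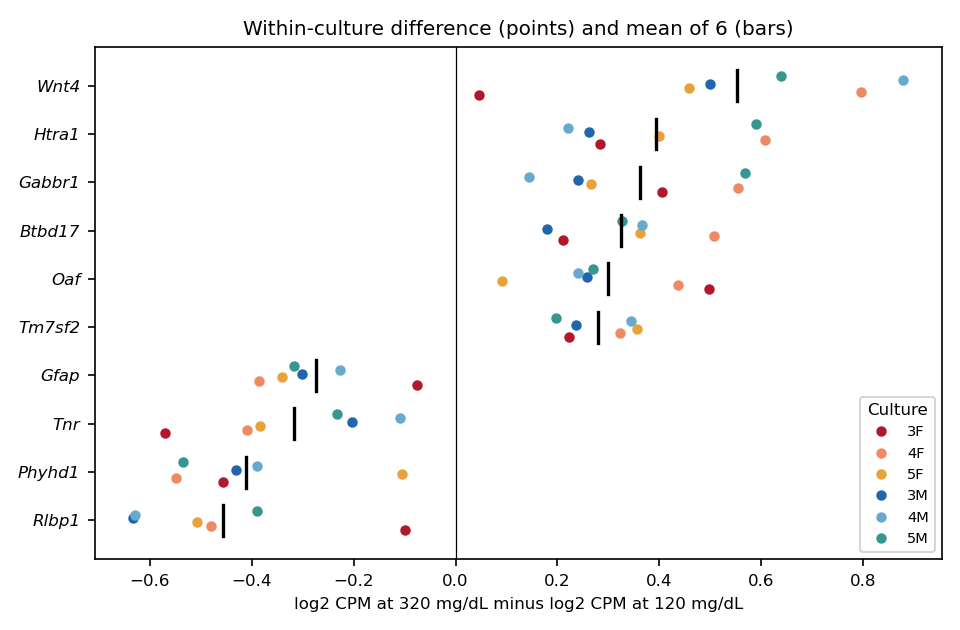
Difference in log2 CPM, 320 minus 120 mg/dL, within each of the 6 cultures (points) and its mean (bars) for the 10 leading genes that showed the same sign in every culture and were not called. Means run from 0.55 for Wnt4 to -0.46 for Rlbp1, and the points of Wnt4 run from 0.05 to 0.88.

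Gene lists for the pathways that ethanol is known to touch and for NSC biology held none of the called genes, so each list is given by its counts at an unadjusted p under 0.05 and its median, beside 2.86% higher, 1.98% lower and a median log2 fold change of 0.01 over all tested genes. With library totals alone, list medians moved down by about the shift of all genes, and where this turned the sign of a median given here it is stated. The medians were small against the spread of the cultures. Of 45 lists with at least 5 tested members, 25 had a median of the other sign when 1 pregnancy was left out (15 without set 3, 6 without set 4 and 7 without set 5), and 20 when 1 culture was left out. Those that kept their sign in each case include the histone, BMP, Wnt, matrix, radial glia, integrated stress response and endoplasmic reticulum lists.

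The glial lineage genes with a small p were all lower at 320 mg/dL. Of 23 tested members of the oligodendrocyte and astrocyte list, 3 were lower at an unadjusted p under 0.05 (Gfap, Bcas1 and Pdgfra), 0 were higher, and the list median was -0.04, or 0.02 without set 5, where 2 were lower. Of the 12 tested astrocyte members 6 were above and 6 below 0, with a median of -0.003. Of the 11 oligodendrocyte members 3 were above and 8 below 0, with a median of -0.13. Pdgfra, the receptor of oligodendrocyte progenitors, had medians of 24.3 CPM at 120 mg/dL, 16.9 CPM at 320 mg/dL and 18.6 CPM in control cells. Its log2 fold change was -0.31 (SE 0.10), and it was lower in 5 of 6 cultures. Bcas1, a gene of early myelinating oligodendrocytes, had a log2 fold change of -0.26 (SE 0.06) and was lower in 6 of 6. The summed level of Olig1, Olig2, Pdgfra, Cspg4 and Sox10 was lower at 320 mg/dL in 6 of 6 cultures, with medians of 480 and 451 CPM. Olig1 was the largest part of this sum, with medians of 358 and 317 CPM, and was itself lower in 6 of 6 (-0.19, SE 0.09). Olig2 was lower in 3 of 6 (-0.13, SE 0.10). Members did not move together, however, since Cspg4 had 0.23 (SE 0.20) and Sox10 0.12 (SE 0.22).

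Replication-dependent histone genes, which supply chromatin during DNA synthesis, lay mostly on the higher side. Of 53 tested members, 12 were higher and 1 was lower at an unadjusted p under 0.05, 49 had a positive log2 fold change and the median was 0.13. H2bc12 had the smallest p (log2 fold change 0.42, SE 0.12, unadjusted p = 0.00599 in edgeR), and H2bc11 (0.29) and H4c12 (0.24) were higher in 6 of 6 cultures. With library totals 3 were higher and the median was 0.06. These near-identical genes can share reads, so single members are uncertain. The lists of the cell cycle did not follow the histones. Of 33 tested genes of S phase and DNA replication 0 were under the threshold (median -0.01), and of 37 of G2 and mitosis 1 was lower, the kinesin Kif2c (-0.59, SE 0.18), with a list median of 0.04 that was -0.02 with library totals. E2f1, the S phase transcription factor, had 1.00 (SE 0.49).

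Matrix and adhesion genes had members on both sides. Of 43 tested collagens, laminins and integrins, 8 were higher and 2 lower at an unadjusted p under 0.05, with a median of 0.05 that was -0.01 with library totals, under which 1 was higher and 1 lower. Without set 5, 2 were higher and 1 lower. The higher members were the collagens Col5a2, Col18a1 and Col27a1, the basement membrane linker Nid1, and the integrins Itga5, Itga7, Itgb3 and Itgb5. Col5a2 led by p (0.19, SE 0.05) and was higher in 6 of 6 cultures.

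Among signalling pathways, 3 of 20 tested genes of BMP signalling were higher, 18 of 20 had a positive change and the median was 0.10. They were the ligand Bmp2 (0.32, SE 0.08, medians 5.36 and 6.62 CPM), the inhibitory Smad6 (0.70) and the target Id3 (0.21). Of 26 Wnt pathway genes 2 were higher, Wnt4 and the secreted antagonist Frzb (0.33), with a median of 0.08. Of 19 Notch genes the effectors Hes5 (0.19, SE 0.07) and Hey1 (0.14) were higher, with a list median of -0.03. Of 23 FGF and EGF genes none was under the threshold. The leading member there was the receptor Fgfr2 (0.14, SE 0.06), that of 14 Sonic hedgehog genes the effector Gli1 (0.38, SE 0.19) and that of 11 retinoic acid genes the receptor Rarb (0.21, SE 0.11).

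In the lists of NSC identity and neuronal differentiation few members differed. Of 22 radial glia genes 2 were higher, among them Hes5, with a median of 0.04 that was -0.02 with library totals. Of 29 neurogenic and neuronal genes none was under the threshold and the median was -0.05, with Snap25, a synaptic vesicle fusion protein, leading by p (0.19, SE 0.08). The immediate early genes were split, with Fos (-0.24), Fosb (-0.25) and Junb (-0.19) lower and Nr4a3 (0.43, SE 0.13) higher of 29 tested.

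Stress pathways held no called gene. Of 31 tested ATF4 targets and factors of the integrated stress response 0 were higher and 3 lower at an unadjusted p under 0.05, with a median of -0.06. They were Ddit3, the stress factor CHOP (-0.26, SE 0.08), the folate enzyme Aldh1l2 (-0.17) and the amino acid transporter Slc7a3 (-0.35). Without set 5, 0 were under the threshold, while the median was -0.06. Of 26 chaperones and folding factors of the endoplasmic reticulum none was under the threshold. Their median was -0.04, and Hspa5, the chaperone BiP, led with -0.26 (SE 0.12). For all 31 and all 26 members the 95% interval lay within a 2-fold change. Of 20 heat shock genes 2 were higher, among them Hspa4l (0.18, SE 0.06), and of 27 p53 targets none was, with Plk2 at -0.22 (SE 0.10).

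Of 31 tested antioxidant genes, 1 was higher and 1 lower. The higher was Srxn1, which reduces oxidised peroxiredoxin, with levels of 21.0, 111 and 286 CPM at 120 mg/dL and 26.6, 132 and 300 CPM at 320 mg/dL (0.26, SE 0.06, 6 of 6 cultures). Of 16 tested genes of ethanol and aldehyde metabolism 1 was higher, Acss2, which turns acetate into acetyl-CoA. It was at 9.37, 16.7 and 24.3 CPM at 120 mg/dL and at 10.6, 20.6 and 26.0 CPM at 320 mg/dL, with a log2 fold change of 0.26 (SE 0.07) and the same sign in 6 of 6 cultures. Only 1 of 4 alcohol dehydrogenases listed passed the filter on low counts, against 11 of 12 aldehyde dehydrogenases, of which 0 were under the threshold. Acss2 is also the leading member of 17 fatty acid synthesis genes, of which 2 were higher.

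In metabolism, 3 of 26 cholesterol genes were higher, Tm7sf2, Fdps (0.26) and Msmo1 (0.17), with a median of 0.03 that was -0.04 with library totals. Of 35 glycolytic and hypoxia genes 2 were higher, with Ndrg1 leading (0.33, SE 0.13). The zinc-binding Mt1 had medians of 223 and 267 CPM (0.34, SE 0.13). Klf9, a glucocorticoid target, was higher in 6 of 6 cultures (0.29, SE 0.07). Cbs, of homocysteine metabolism, was lower in 6 of 6 (-0.23, SE 0.08). The imprinted Peg3 had 0.18 (SE 0.06), and the class I genes H2-K1 (0.20, SE 0.08) and H2-D1 (0.21) and the sensor Ifih1 (0.30) were the 3 of 23 interferon genes higher at an unadjusted p under 0.05. Of these 23 genes 14 had a positive change, and the number under the threshold and higher was 0 with library totals and 0 without set 3.

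Lists of the core machinery had medians between -0.08 and 0.09, with few members under the threshold, and their direction could rest on 1 pregnancy. Cytosolic ribosomal protein genes had a positive change in 67 of 79 tested members and a median of 0.09, with 0 under the threshold. Without set 3, 0 of 79 were positive and the median was -0.18, whereas without set 5 all 79 were positive, the median was 0.40 and 27 were higher at an unadjusted p under 0.05. The leading member was Rpl41 (0.24, SE 0.20). Nuclear-encoded respiratory subunits were positive in 66 of 82 (median 0.08, Uqcrh 0.21, SE 0.10), in 39 of 81 without set 3 (median -0.0076) and in 74 of 82 without set 5 (median 0.17, 21 under the threshold). Aminoacyl tRNA synthetases were positive in 2 of 17 (median -0.08, Lars -0.12, SE 0.07), and their median stayed negative without each pregnancy (-0.10 to -0.05). Lists of splicing (Tra2a -0.11, SE 0.05), ribosome biogenesis (Utp20 -0.09, SE 0.07), translation initiation (Eif3c -0.13, SE 0.07), proteasome (Psmc5 -0.11, SE 0.06) and mitochondrial ribosome genes (Mrpl15 0.11, SE 0.06) held no member under the threshold. Of 30 EV biogenesis genes 2 were higher, with Rab27b leading (0.34, SE 0.13), and of 25 lysosome genes 1 was, the factor Tfeb (0.23, SE 0.08).

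Lists of small RNA classes had the largest medians, 0.28 over 40 microRNA loci, 0.24 over 5 small nucleolar RNAs and 0.22 over 14 mitochondrial tRNAs. The microRNA loci include host genes such as the long non-coding Mir9-3hg. The 203 nuclear tRNA genes had a median of 0.13. All 4 medians turned without set 3, to -0.20, -0.16, -0.03 and -0.20, and 22 of 198 nuclear tRNA genes were then lower at an unadjusted p under 0.05 and 0 higher. Without set 5 the medians were 0.60, 0.56, 0.44 and 0.43. The leading members were Mir9-3hg, the host gene of a brain microRNA, at 0.19 (SE 0.05), TrnE at 0.61 (SE 0.35), Scarna2 at 0.28 (SE 0.21), n-TQctg8 at -0.91 (SE 0.32) and the mitochondrial mRNA ND6 at 0.27 (SE 0.12). Mir9-3hg was higher in 6 of 6 cultures, while TrnE was higher by 2.46 in 3F, 1.42 in 3M and 0.59 in 4M and lower in the others. The share of counts on nuclear tRNA genes was higher at 320 mg/dL in 4 of 6 cultures, and that on small nucleolar RNAs in 3 of 6, which were 3F, 3M and 4M. In culture 3F the nuclear tRNA share was 0.433% at 120 mg/dL and 0.712% at 320 mg/dL, and no other cell sample at these doses exceeded 0.294%. Without 3F the medians of the 4 classes were 0.06, 0.01, 0.07 and -0.08, in the order above.

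**Figure D4:**
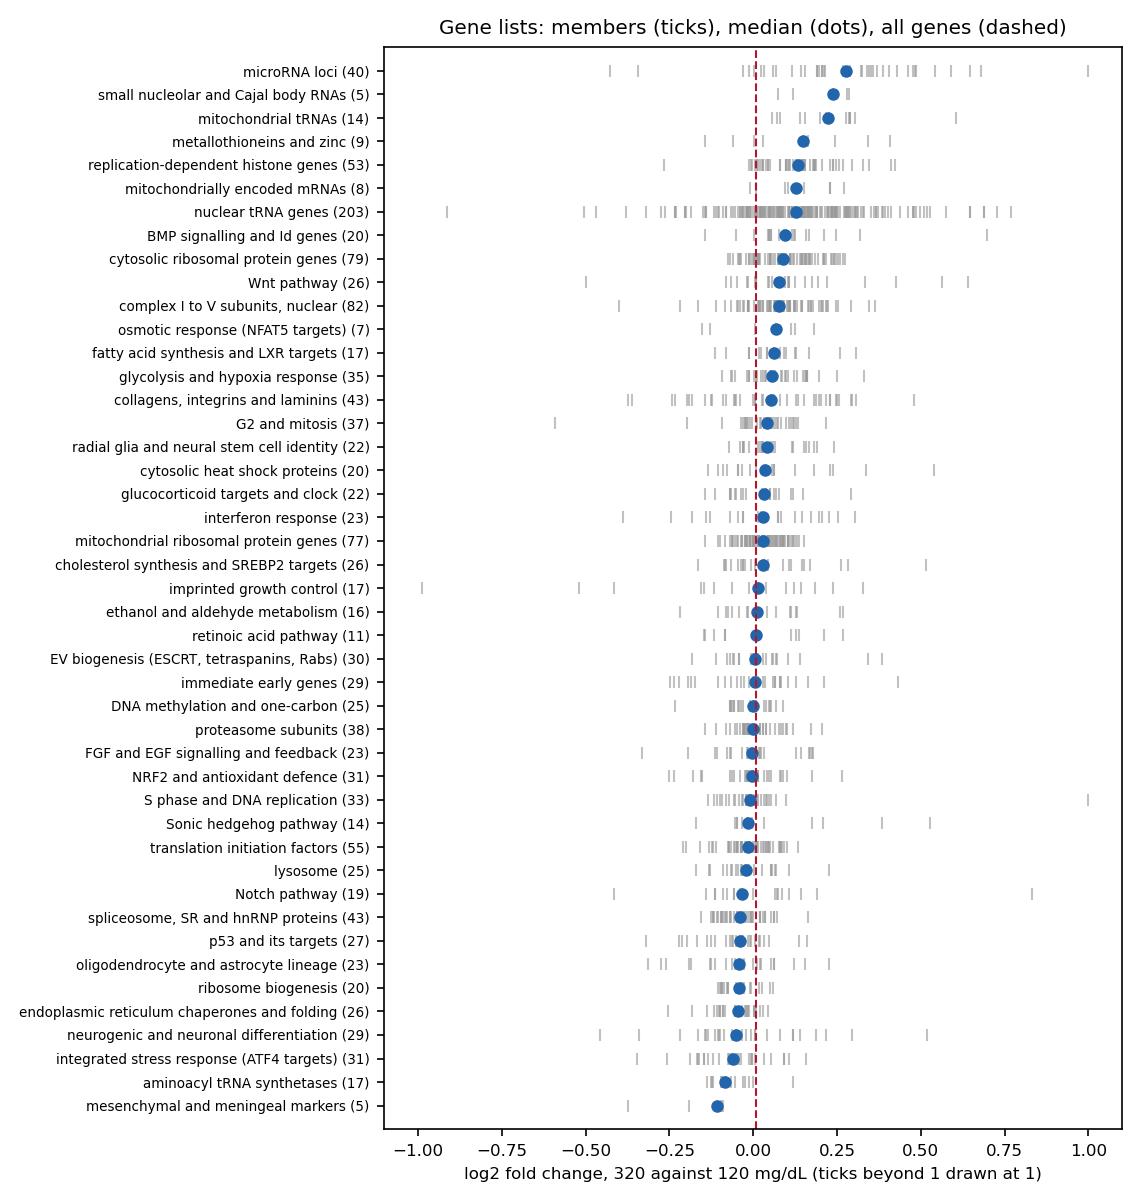
Log2 fold change at 320 against 120 mg/dL for the tested members (ticks, those beyond 1 drawn at 1) and the median (dots) of each list with at least 5 tested members, whose number is in parentheses. The dashed line is the median of all tested genes, 0.01, and list medians run from -0.11 to 0.28.

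The ranges of the library measures overlapped between doses, and with 6 cultures a single measure could not pass adjustment over the 8 that were tested. Total counts were 26.8 to 55.3 M (M stands for 1000000 counts) at 120 mg/dL, with a median of 42.6 M, and 26.6 to 38.9 M at 320 mg/dL, with a median of 29.6 M, lower at 320 mg/dL in 5 of 6 cultures. An exact permutation test over the sign of the 6 within-culture differences gave p = 0.156 (0.417 adjusted over 8 measures). The number of genes detected after thinning every sample to the smallest total had the smallest p, with medians of 24763 and 24383 at 120 and 320 mg/dL, and was lower at 320 mg/dL in 5 of 6 cultures (exact p = 0.0938, 0.417 adjusted). Mitochondrial rRNA took a median of 28.3% and 27.1% of counts (exact p = 0.875), most of it from mt-Rnr2. The 3 genes with the most counts were mt-Rnr2 (log2 fold change 0.04, SE 0.16), mt-Rnr1 (0.02, SE 0.15) and Gm36876 (0.16, SE 0.29). The smallest p that 6 cultures allow is 0.03125.

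Whether the step differed between female and male cultures was tested with a sex by dose term. It passed the threshold for 0 of 18410 genes (0%) in edgeR, with 941 at an unadjusted p under 0.05, while DESeq2 called 16. The genes with the smallest p were Gm34805 (-5.62, SE 0.67) and Nt5c1a (-2.80, SE 0.37) for a lower step in males and H2bc15 (0.78, SE 0.13) and Gm30684 (8.998, SE 1.55) for a higher step in males, on the log2 scale. Their smallest adjusted p in edgeR was 0.417. Gm34805, Nt5c1a and Gm30684 were called with library totals and with no filter on low counts, and Gm34805 also with DESeq2. Gm34805 was at 345, 162 and 195 counts in the 3 male cultures at 120 mg/dL and at 1 to 7 counts at 320 mg/dL, whereas the female cultures had 3 to 10 counts at both doses. The median SE of this term was 0.21, against 0.11 for the step itself, so small differences between the sexes were often within the error.

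At the called loci the term for sex was 4.37 (SE 1.95, edgeR adjusted p = 0.935) for Gm34152 and -10.18 (SE 2.75, adjusted p = 0.935) for Gm30812. With DESeq2 the term for sex was called at Gm30812 and not at Gm34152. With the female cultures alone 1 gene was called, Gm34152, and with the male cultures alone 1 gene was called, Gm30812.

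The step was also compared with that in the EVs of the same cultures, in a joint fit of 24 samples, of which the EV samples held 0.959 to 5.51 M counts each. The location by dose term passed the threshold for 4 of 21178 genes (0.0189%), Hnrnpl, Epm2a, Gm30812 and Gm34152, with a higher step in EVs for all. Hnrnpl, a splicing regulator, had 40 to 250 counts in EVs at 120 mg/dL and 156 to 2876 at 320 mg/dL, and a difference between steps of 3.20 (SE 0.46, edgeR adjusted p = 0.0262). In cells its log2 fold change was -0.03 (SE 0.07). Epm2a, the glycogen phosphatase laforin, differed by 1.13 (SE 0.17, adjusted p = 0.0262) and had 0.08 (SE 0.07) in cells. Gm34152 and Gm30812 had at most 4 counts in any EV sample at these doses, so their terms of 9.56 and 10.32 come from the cells.

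On the other side, Cnnm3 (-6.63, SE 1.14) and Dnaaf4 (-8.21, SE 1.43) had the smallest p for a lower step in EVs, both with an adjusted p of 0.0577. Dnaaf4 had 10464 counts in a single EV sample at 120 mg/dL, and at most 9 in any EV sample at 320 mg/dL. In the cells Cnnm3 had a log2 fold change of 0.05 (SE 0.14) and Dnaaf4 of 0.08 (SE 0.15). For the leading protein-coding genes higher in cells, the EV step was 0.67 (SE 0.26) for Htra1, 0.58 (SE 0.24) for Wnt4 and 0.31 (SE 0.13) for Gabbr1. It was 0.10 (SE 0.22) for Oaf, 0.01 (SE 0.23) for Btbd17 and -0.20 (SE 0.29) for Tm7sf2. For those lower in cells, C2cd4b had -1.05 (SE 1.05), Phyhd1 -0.05 (SE 0.17) and Rlbp1 0.13 (SE 0.30). Gfap had 0.06 (SE 0.16) and Tnr -0.00 (SE 0.12). None of these EV steps passed the threshold (edgeR adjusted p of 0.897 or more), and Htra1 had 0 to 19 counts per EV sample. No difference between locations passed the threshold for these genes (adjusted p = 1.0).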

How the data were processed

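RNA of 36 cell and EV samples was sequenced as stranded, rRNA-depleted libraries. Per the labels and the study's methods, the authors removed duplicate reads, trimmed with Trimmomatic, aligned with STAR (build mm39) and assigned reads to genes with HTSeq. The deposited files hold whole, unnormalized counts for 40205 features per sample. Whether counting used strand is not given in the sources used here, so overlapping genes may share or lose reads. One file per sample was used. Coordinates are of GENCODE vM39 on GRCm39, matched by symbol.

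The main test was that of edgeR 4.0.16 under R 4.3.3 (filterByExpr with a minimum count of 10 and total of 15, TMM, quasi-likelihood F test, Benjamini-Hochberg adjusted p under 0.05), with DESeq2 1.42.0 as an alternative. The fit held the 12 cell samples at 120 and 320 mg/dL and the culture as a block. The labels give culture and pregnancy set, and the 2 samples of a culture deviated together (correlations of 0.501 to 0.714, each highest within its own culture in 6 of 6). The p-values measure the dose step against its scatter among these 6 cultures, since differences in level between cultures are taken up by the block. The female and male culture of a set share a dam but are counted as independent, also in the sign-change tests. Scatter among pregnancies is therefore not measured. Where the steps of a set go together, SEs, intervals and p-values may be too small. Levels are CPM scaled by TMM over the 18 cell samples, and log2 CPM used a prior count of 1. Total counts were 26.6 to 55.3 M per cell sample, and intervals on counts cover counting error only.

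Named genes were, in each direction, genes past the threshold in 6 of 6 cultures with a mean of at least 1 CPM, filled to 6 by the smallest p, together with the 4 smallest p per direction, the leading member of each list, the 3 most counted genes, the 2 smallest p per direction of the sex and location terms, and markers. Others named were chosen after their values were seen. The comparison, gene lists and rules were chosen with earlier results of these data known. Alternatives changed scaling, filter, tool, block, samples and depth. A robust estimate of spread and list medians without each culture were added after seeing the data. Tests were tested on simulated data.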

Additional observations from a re-analysis of the deposited data

Results flagged for a closer look

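At 120 and 320 mg/dL, but not in control cells, culture 3F lay apart from the other 5 cultures in the share of counts on small non-coding RNAs. Its nuclear tRNA genes took 0.433% of counts at 120 mg/dL and 0.712% at 320 mg/dL, and its small nucleolar RNAs took 0.327% and 0.600%. In each of these 4 groups of 6 samples the distance from 3F to the nearest sample, divided by the range, exceeded Dixon's critical value at the 95% level. In all 42 groups were examined, of which chance marks about 1 in 20.

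The step from 120 to 320 mg/dL differed between EVs and cells at 4 genes, by a log2 difference of 1.13 for Epm2a, 3.20 for Hnrnpl, 9.56 for Gm34152 and 10.32 for Gm30812, in the edgeR test of the difference itself (adjusted p of 0.0262 for Epm2a and Hnrnpl and 0.0435 for the other two). None of the 4 was called without set 3 or without set 5.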

How the results depend on the processing

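Both called loci were called again with median-of-ratios scaling, library totals, a mean of at least 1 CPM, thinning to the smallest total and the robust spread. The count of called genes was 5 with no filter on low counts, 7 with DESeq2 (57.1% of them higher, 1 shared), 0 with all 18 cell samples (341 higher and 340 lower at an unadjusted p under 0.05 in edgeR), 1 with female and 1 with male cultures only. With no replicate block it was 0 (36 higher and 100 lower at an unadjusted p under 0.05), and with pregnancy as the block it was 1, Gm30812. Leaving out a culture gave 1 to 2 (1 without 5M) and leaving out a pregnancy gave 2 to 2, with 1 of them shared without set 5. Genes with a sex term past the threshold numbered 5 with library totals, 5 with no filter, 16 with DESeq2, and 1 to 10 when a pregnancy was left out (10 without set 3, 1 without set 4 and 6 without set 5). With no replicate block none was. The location term gave 2 genes with median-of-ratios scaling, 25 with no filter, 2 with a mean of at least 1 CPM, 2 with no replicate block, and 1 to 5 without a pregnancy, of which 0 without set 3, 2 without set 4 and 0 without set 5 were among the 4 of the full fit.

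Signs turned at single genes and at the list medians given above. Leaving out a pregnancy, values ran from -0.372 to 0.0249 for Itgam, -0.951 to 0.0151 for Col1a1, -0.0621 to 0.534 for Rpl41, -0.0233 to 1.05 for TrnE, -0.0463 to 0.619 for Scarna2, -0.0471 to 0.151 for mt-Rnr2, -0.149 to 0.210 for mt-Rnr1 and -0.373 to 0.511 for Gm36876, and leaving out a culture from -0.0411 to 0.131 for mt-Rnr2, -0.0618 to 0.124 for mt-Rnr1 and -0.0754 to 0.341 for Gm36876. With female cultures only, Rpl41 had -0.0096 and Gm36876 -0.0259. With library totals mt-Rnr2 had -0.0301 and mt-Rnr1 -0.0441, and mt-Rnr1 had -0.0069 with no filter. Gm36876 had -0.000119 with no replicate block. The causes were not tested. Depth limits genes below 1 CPM, where intervals were widest, and the EVs.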

Other observations

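A set of 128 genes, listed after their counts were seen and including both called loci, had at least 100 counts in a cell sample and at most 3 in another, among them Y-linked genes that follow the sex of the culture. The number of these genes with at least 100 counts in a sample ranged from 13 to 24 in control cells, from 12 to 52 at 120 mg/dL and from 5 to 25 at 320 mg/dL, where 52 was the 3M sample with 49.3 M counts. Gm34110, a locus that did not pass the filter, reached 17053 counts in a cell sample and was at 3 counts or fewer in all 6 samples at 320 mg/dL and 5 of 6 at each other dose. Asgr2, a receptor known from liver, was above 100 counts in 5, 6 and 4 of 6 samples at 0, 120 and 320 mg/dL. Rbmxl2, a testis-type RNA-binding gene, was above 100 counts in 3, 2 and 2 of 6. Totals were lower at 320 mg/dL in 5 of 6 cultures, and the part of depth in these numbers was not tested.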
